A study of Mus musculus with 9 samples.

Results

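The 6 genes described here are the paired-type homeobox genes of limb mesenchyme: Prrx1, Prrx2, Alx1, Alx4, Shox2 and Pitx1. They were taken by gene symbol from the 32285 genes of the deposited count matrices by a rule that used no measured value, although the set was proposed with earlier results of these data known, and all 6 were found in every matrix. Forelimb buds of mouse embryos at E10.75 (37–39 somites, Swiss Albino background) were dissociated and profiled by droplet single-cell RNA sequencing with a 3′ kit, which counts each captured transcript once as a unique molecular identifier (UMI). There were 3 libraries each of wild type (Wt), E1C8Δ/Δ and E1C5Δ/Δ, and each library held the forelimb bud pair of 1 embryo. E1C8Δ/Δ embryos are homozygous for a Grem1 allele that lacks the enhancer cluster EC1 together with the cis-regulatory module CRM8, and E1C5Δ/Δ embryos for one that lacks EC1 together with CRM5. Both alleles therefore share the loss of EC1, both are germline deletions present in every cell, and no transgene feature (eGFP, tdTomato, IRES or CreERT2) had a UMI in the mesenchyme of any library. Grem1 encodes Gremlin1, which is secreted and blocks BMP ligands, and the comparison of the 3 genotypes asks how mesenchymal progenitors differ when its expression is reduced.

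Paired-type homeobox proteins are transcription factors that bind TAAT-containing DNA, often as pairs on palindromic sites. Prrx1 and Prrx2 are paralogs that mark early limb mesenchyme and act redundantly in skeletal growth. Alx4 and its relative Alx1 act in craniofacial and limb patterning, and mice without Alx4 form extra anterior digits. Shox2 is needed for growth of the proximal long bone of the limb, and Pitx1 is known as a determinant of hindlimb identity that the forelimb normally lacks.

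In GRCm38, the build of the files, Prrx1 (ENSMUSG00000026586) lies at chr1:163245119-163313710 on the minus strand. Prrx2 (ENSMUSG00000039476) and Alx4 (ENSMUSG00000040310) lie on the plus strand of chromosome 2, at chr2:30834972-30881251 and chr2:93642384-93681339. Shox2 (ENSMUSG00000027833) lies at chr3:66971727-66981771, Alx1 (ENSMUSG00000036602) at chr10:102998707-103030215 and Pitx1 (ENSMUSG00000021506) at chr13:55825051-55836192, all 3 on the minus strand. All 6 are protein-coding genes. Upstream sequences matched 3 of the 6 members (Prrx1, Prrx2 and Shox2), and those of Prrx1 and Shox2 are shown because their windows overlap no annotated exon, which that of Prrx2 does. Alx1, Alx4 and Pitx1 have none shown. They are RefSeq sequence of GRCm38.p6, 190 bases each, written 5′ to 3′ on the strand of the gene, and capitals mark each TAATTA, a palindrome of the core letters that homeodomains bind:
Prrx1 (chr1:163313711-163313900, minus strand): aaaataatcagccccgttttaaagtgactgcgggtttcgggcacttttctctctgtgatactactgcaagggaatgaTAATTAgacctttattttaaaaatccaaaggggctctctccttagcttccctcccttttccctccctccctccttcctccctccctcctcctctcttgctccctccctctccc
Shox2 (chr3:66981832-66982021, minus strand): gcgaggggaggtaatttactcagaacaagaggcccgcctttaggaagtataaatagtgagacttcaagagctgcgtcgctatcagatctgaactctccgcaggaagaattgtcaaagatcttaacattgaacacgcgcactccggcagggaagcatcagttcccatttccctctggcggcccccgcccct
The Prrx1 window held 1 TAATTA and the Shox2 window none. TAATTA occurred in 4.02% of 32851 promoter windows of the same length. The spaced palindrome of paired-type dimers, TAAT and ATTA around any 3 bases, occurred in 0.384% of windows, and the SMAD-type sequence GGCGCC in 6.61%, and neither window held them. Each motif equals its own reverse complement, so 1 search covers both strands. These matches describe letters in a window and were not tested for binding.

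Cells were called mesenchymal when they had at least 3 of 9 mesenchymal markers and at most 1 marker of any other lineage after thinning to 10000 UMIs, and 32622 cells passed. Libraries contributed between 426 mesenchymal cells (E1C8Δ/Δ replicate 1) and 6283 (E1C5Δ/Δ replicate 3), Wt replicate 3 was also small with 687, and mesenchymal UMIs summed to between 16086631 and 263961690 per library. The cell barcodes that any pair of libraries shared numbered from 0 to 28. The markers of muscle, blood, epithelium, blood vessels, immunity and neural crest and glia each summed to at most 12.6 CPM (CPM being a gene's UMI count relative to all UMIs of the same summed cells) in the mesenchyme of any library. The gate was set on these same markers, so their low sums do not check its purity. Grem1 checked the labels of Wt against the mutants: 43.6, 29.6 and 32.7 CPM in Wt, 11.3, 11.3 and 14.1 in E1C8Δ/Δ, and 17.6, 15.8 and 25.7 in E1C5Δ/Δ. Every mutant library was below every Wt library (log2 difference -1.16 ± 0.15 SE, edgeR adjusted p = 0.0040). Grem1 RNA was lower in E1C8Δ/Δ than in E1C5Δ/Δ (-0.74, adjusted p = 0.026), whereas the paper describes more GREM1 protein left in E1C8Δ/Δ. Grem1 therefore did not check which mutant is which. Xist outweighed Y-linked transcripts in 4 of the 6 mutant libraries (E1C8Δ/Δ replicates 1 and 2, E1C5Δ/Δ replicates 1 and 3) and in none of the 3 Wt libraries, so embryo sex and genotype cannot be fully told apart.

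Within the mesenchyme, 11 positions were gated from markers that include none of the 6 members, and a cell could belong to several. The positions were anterior proximal (Pax1, Hoxb genes, Runx2), polarizing region (Shh), distal (Hoxa13, Hoxd13, Tfap2b, Lmo2, Jag1), peripheral (Asb4, Msx1, Msx2, Lhx2, Lhx9), proximal (Gsc, Creb5, Meis1, Sox8), scapular anterior (Emx2, Gria2, Ntn1), core chondrogenic (Sox9, Col2a1, Fgf9, Sox5, Sox6), posterior (Osr1, Tbx3, Dkk1, Epha3, Alcam), connective tissue (Sostdc1, Ebf2, Hgf, Meox2), dorsoventral (Osr2, Smoc1, Nrp2) and zeugopod level (Hoxa11, Hoxd11, Lmo1). Gates held from 635 cells (polarizing region) to 5912 (proximal). A library with fewer than 20 cells in a gate was left out of its fit, which left 7 libraries for the polarizing region and 8 for the scapular anterior gate.

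Of the 6 genes, 5 were mesenchymal in these buds, and Pitx1 was nearly undetected. At a common depth of 10000 UMIs per cell, a UMI of Prrx1 was found in a median over libraries of 98.0% of mesenchymal cells, of Prrx2 in 83.99%, of Shox2 in 81.2%, of Alx4 in 15.03%, of Alx1 in 9.15% and of Pitx1 in 0.367%. With all UMIs and no thinning these medians were 99.8, 96.9, 91.9, 31.99, 20.6 and 1.10% in the same order. Blood cells, which should lack all of them, gave a background from free RNA at the same thinned depth: 10.2–30.8% of cells for Prrx1, 5.62–21.8% for Prrx2, 4.94–23.0% for Shox2, 0.597–2.47% for Alx4 and 0–1.48% for Alx1 over 7 libraries. All of these shares lay below the mesenchymal range of the same gene, and the median depth before thinning was 29242 UMIs in mesenchyme and 32991 in blood. For Pitx1, 0 of 2239 blood cells had a UMI, which allows a share of up to 0.134%. Muscle progenitors had Prrx1 at 107.9 ± 38.3 CPM (SD, n = 9). Of the 5 members other than Pitx1, a mesenchymal cell most often had exactly 3 with a UMI (58.3–61.4% of cells by library), and all 5 were found in 0.291–1.78%.

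In the position comparison, each gate was set against the remaining mesenchymal cells of the same libraries. Of the 66 member and position pairs, 59 passed the test (22 higher and 37 lower), beside 42.5% of all genes and positions tested (22.5% to 62.2% by gate). Alx4 was highest in anterior proximal and peripheral cells, and Alx1 in these and in posterior cells, where Alx4 was lower than in the rest. Shox2 was highest in the core, dorsoventral and connective tissue gates and Prrx2 at the periphery, and Prrx1 varied least. The map of differences by position shows all 66 values.

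**Figure D1:**
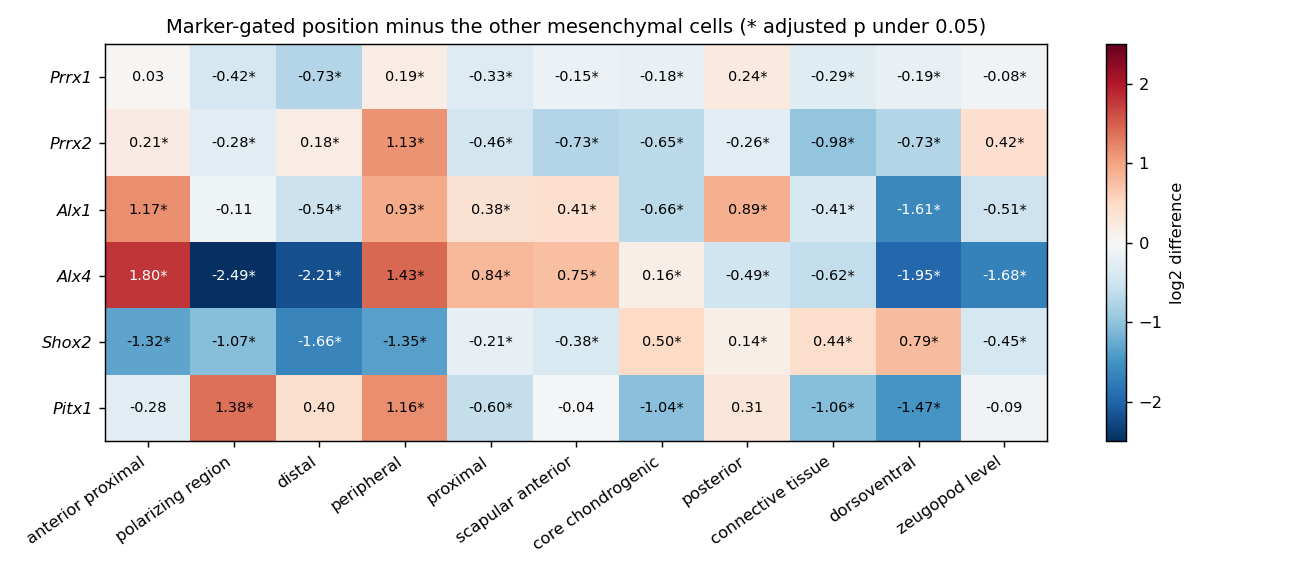
Log2 difference (colour and printed value) of each member (rows) between the cells of each marker-gated position (columns) and the other mesenchymal cells of the same libraries, where an asterisk marks an adjusted p under 0.05. Alx4 runs from -2.49 in the polarizing region to 1.80 in anterior proximal cells, whereas Prrx1 stays between -0.73 and 0.24.

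Prrx1 had a mean level in Wt of 853.1 ± 127.1 CPM (SD, n = 3) in peripheral, 840.7 ± 75.2 in posterior and 748.3 ± 63.4 in anterior proximal cells. Neighbours in this order overlapped from the peripheral down to the polarizing region gate (475.6 ± 37.2, n = 2), and distal cells, at 369.9 ± 38.0, lay apart below it. The ratio of the highest to the lowest mean was 2.31 in Wt, 1.77 in E1C8Δ/Δ and 1.67 in E1C5Δ/Δ. Against the rest of the mesenchyme, over all 3 genotypes, Prrx1 was lower in distal cells by 0.73 on the log2 scale (SE 0.048, edgeR adjusted p = 1.39e-10). It was higher in posterior cells by 0.24 (SE 0.025, adjusted p = 6.72e-08).

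Prrx2 had its highest Wt mean in peripheral cells, 638.1 ± 48.3 CPM, with 594.8, 629.3 and 690.1 in the 3 libraries. The next gate, anterior proximal, had 387.2 ± 37.8 CPM and did not overlap it. The lowest levels were in the connective tissue (152.4 ± 15.7) and dorsoventral gates (174.9 ± 3.23). The difference from the other mesenchymal cells was 1.13 in the peripheral gate (SE 0.041, edgeR adjusted p = 4.35e-14) and -0.98 in connective tissue (SE 0.024, adjusted p = 1.23e-17). The ratio of Prrx2 to Prrx1 UMIs, which needs no scaling between libraries, was 0.421 ± 0.042 in Wt mesenchyme (SD, n = 3). It was 0.748 ± 0.113 in distal and 0.759 ± 0.121 in peripheral cells and 0.275 ± 0.026 in connective tissue cells, and these Wt ranges did not overlap the connective tissue range. In distal cells Prrx1 was at its lowest of the 11 gates, and in peripheral cells Prrx2 was at its highest.

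Alx4 was spread most widely in Wt among the members of more than a few UMIs, with a ratio of 15.4 between the highest and lowest mean. Wt libraries had 74.1, 71.5 and 81.5 CPM in anterior proximal cells and 70.0, 61.6 and 63.2 in peripheral cells, against 4.67, 4.86 and 5.24 in distal cells. The 2 high gates did not overlap each other or any lower one. The log2 differences from the other mesenchymal cells were 1.80 (SE 0.056, edgeR adjusted p = 1.96e-15) in anterior proximal and 1.43 (SE 0.063, adjusted p = 3.96e-13) in peripheral cells. They were -2.49 (SE 0.14) in the polarizing region, -2.21 (SE 0.089) in distal, -1.95 (SE 0.089) in dorsoventral and -1.68 (SE 0.063) in zeugopod level cells, all with adjusted p of at most 7.4e-14.

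Alx1, a gene of few UMIs, followed part of this order. Its Wt mean was 14.6 ± 2.28 CPM in peripheral, 13.6 ± 5.49 in anterior proximal and 12.0 ± 4.91 in posterior cells and 2.02 ± 0.43 in dorsoventral cells, with every neighbour in the order overlapping. Alx1 was higher than in the rest in anterior proximal cells (log2 1.17, SE 0.085, edgeR adjusted p = 5.56e-10) and posterior cells (0.89, SE 0.075, adjusted p = 1.82e-09), and lower in dorsoventral cells (-1.61, SE 0.081, adjusted p = 1.59e-13). Its call in the scapular anterior gate (0.41) turned to -0.76 with a stricter gate, which passed in the other direction (edgeR adjusted p = 0.036), and in the proximal gate 0.38 turned to -0.053, which did not pass.

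Shox2 had Wt means of 703.6 ± 6.46 CPM in dorsoventral, 697.9 ± 61.3 in core chondrogenic and 605.8 ± 32.8 in connective tissue cells, of which the dorsoventral and core ranges overlapped. The lowest levels were 191.9 ± 62.6 in peripheral and 120.3 ± 24.5 in distal cells, which did not overlap. Shox2 was lower than in the rest in distal (-1.66, SE 0.091, edgeR adjusted p = 8.32e-12), peripheral (-1.35, SE 0.050, adjusted p = 5.13e-14) and anterior proximal cells (-1.32, SE 0.055, adjusted p = 7.34e-14), and higher in dorsoventral cells (0.79, SE 0.027, adjusted p = 3.38e-16). Its difference in posterior cells, 0.14, turned to -0.17 with a stricter gate, which also passed in the other direction (edgeR adjusted p = 9.4e-04). Pitx1 was called higher in the polarizing region (1.38, SE 0.44, edgeR adjusted p = 0.017) and in peripheral cells (1.16, SE 0.23, adjusted p = 4.28e-04), where its Wt means were 1.13 and 1.07 CPM. In the polarizing region it had 1.36 and 2.39 CPM in the 2 E1C8Δ/Δ libraries and no UMI in any of the 3 E1C5Δ/Δ libraries. The polarizing region call rested on few UMIs and was lost when doublets were kept (0.92, adjusted p = 0.099), under DESeq2 (1.17, adjusted p = 0.128), and without Wt replicate 1 (1.26), Wt replicate 2 (1.21) or E1C8Δ/Δ replicate 3 (1.14).

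Over the 11 positions, which share cells and libraries, the patterns of Alx1 and Alx4 had a Pearson r of 0.72 and those of Prrx2 and Shox2 one of -0.74, whereas Prrx1 and Prrx2 had 0.22. These values are descriptions over positions that are not independent. Among 7716 genes, those with patterns most like Alx4 were Hadh (r = 0.97), Ext2 (0.97) and Ifitm2 (0.96), those most like Shox2 were Spg20 (0.93), Fgfr1 (0.92) and Robo1 (0.92), and those most like Prrx2 were Ifngr2 (0.95), Samd1 (0.92) and Fance (0.91). Prrx1 had Nubpl (0.90), Dusp19 (0.85) and Ncaph2 (0.83). Only Ext2 and Robo1 of these 12 genes were also named from the 3 Wt libraries alone.

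In single mesenchymal cells, Alx4 was found less often beside Shox2. At the common depth, 13.1% of cells with a Shox2 UMI had an Alx4 UMI against 24.0% of cells without, a mean difference over libraries of -10.9 ± 4.20 percentage points (SD, n = 9). The difference was negative in 9 of 9 libraries, from -18.5 to -5.11 (exact two-sided sign-flip permutation p = 0.00391, the smallest that 9 libraries allow). Within gates it averaged -15.1 points in proximal cells (9 of 9 libraries negative) and -16.5 in core chondrogenic cells (8 of 8), and it was -0.084 in distal and 0.690 in peripheral cells. Alx4 was found more often beside Alx1, 21.9% against 14.5%, a difference of 7.34 ± 3.54 points that was positive in 9 of 9 libraries and ran from 0.0746 to 12.2 (exact two-sided sign-flip permutation p = 0.00391). Within gates this difference averaged 8.68 points in core chondrogenic (positive in 6 of 6 libraries with enough cells) and 7.27 in connective tissue cells (5 of 5), but 0.689 in posterior cells (4 of 6 negative), -0.238 in distal cells (2 of 3 negative) and -2.24 in the 1 library with a value for the polarizing region. Prrx2 was found more often beside Prrx1 by 9.30 ± 3.66 points, again in 9 of 9 libraries, although only 7 to 165 cells per library lacked Prrx1. Within gates it averaged 15.5 points in proximal (4 of 4 libraries positive), 21.7 in core chondrogenic (3 of 3) and 14.5 in connective tissue cells (4 of 4), but 0.995 in distal cells (2 of 3 negative) and 0.721 in the 1 library with a value at zeugopod level. Thinned to 5000 UMIs, the difference over all mesenchymal cells was 7.005 points and 8 of 9 libraries were positive. Depth within a gate and cell size were not tested as parts of these differences.

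**Figure D2:**
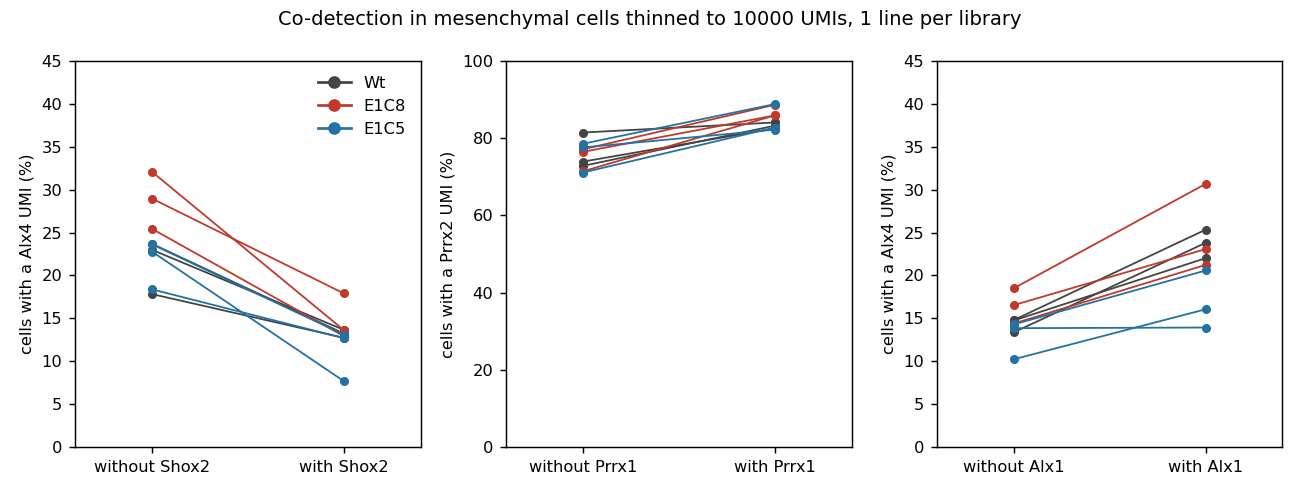
Share of mesenchymal cells with an Alx4 or Prrx2 UMI (y axis, percent) among cells without and with a UMI of the partner gene (x axis), for the pairs Shox2 and Alx4, Prrx1 and Prrx2, and Alx1 and Alx4, at 10000 UMIs per cell. Each line joins the values of 1 library, coloured by genotype, and the Shox2 and Alx4 line falls toward cells with Shox2 in all 9 libraries.

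Between genotypes, Alx1 was the only member that passed the test over all mesenchymal cells, where 2.21% of the 16041 genes tested passed in both mutants together against Wt. Alx1 had 6.67, 7.94 and 4.28 CPM in Wt, 10.6, 10.3 and 11.7 in E1C8Δ/Δ and 12.3, 11.3 and 12.2 in E1C5Δ/Δ. All 6 mutant libraries lay above every Wt library. How often all genes separate the groups in this way, here or in any gate, was not computed. The log2 difference of both mutants against Wt was 0.85 (SE 0.17, edgeR adjusted p = 0.029). It was 0.74 in E1C8Δ/Δ (adjusted p = 0.035, where 9.49% of genes passed) and 0.95 in E1C5Δ/Δ (adjusted p = 0.030, where 1.60% passed). The genes behind these shares numbered 354 for both mutants, 1523 for E1C8Δ/Δ and 257 for E1C5Δ/Δ, and 3, 133 and 39 with sex as a covariate. Alx1 was not called between E1C8Δ/Δ and E1C5Δ/Δ. With sex as a covariate the difference was 0.91 and the call was lost (adjusted p = 0.192), and over all alternatives the adjusted p ran from 2.87e-05 to 0.192. The only male-type mutant libraries were E1C8Δ/Δ replicate 3 (11.7 CPM) and E1C5Δ/Δ replicate 2 (11.3 CPM), and no comparison within male-type libraries was tested. The call was also lost without the 2 smallest libraries (0.66, adjusted p = 0.084), and without Wt replicate 1, any E1C8Δ/Δ replicate or E1C5Δ/Δ replicate 1, with differences of 0.80 to 0.88. The calls in the single mutants were lost as well with sex as a covariate (E1C8Δ/Δ 0.80, adjusted p = 0.111, and E1C5Δ/Δ 1.02, adjusted p = 0.142) and without the 2 smallest libraries (0.58, adjusted p = 0.066, and 0.75, adjusted p = 0.062), and in E1C5Δ/Δ with only Wt and E1C5Δ/Δ in the fit (0.96, adjusted p = 0.082). Leaving out single libraries, the E1C8Δ/Δ call was lost without Wt replicate 1 or any E1C8Δ/Δ replicate (0.65 to 0.80) and the E1C5Δ/Δ call without Wt replicate 1, E1C8Δ/Δ replicate 1 or any E1C5Δ/Δ replicate (0.90 to 0.98). The share of cells with an Alx1 UMI was 5.41, 6.49 and 3.06% in Wt and 8.88–10.67% in the mutants, a difference of 4.79 points (exact two-sided permutation p = 0.0238, the smallest that 3 against 6 allows, adjusted over the 6 members p = 0.143). With all UMIs the difference was 7.44 points (adjusted p = 0.333 by the same exact test).

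**Figure D3:**
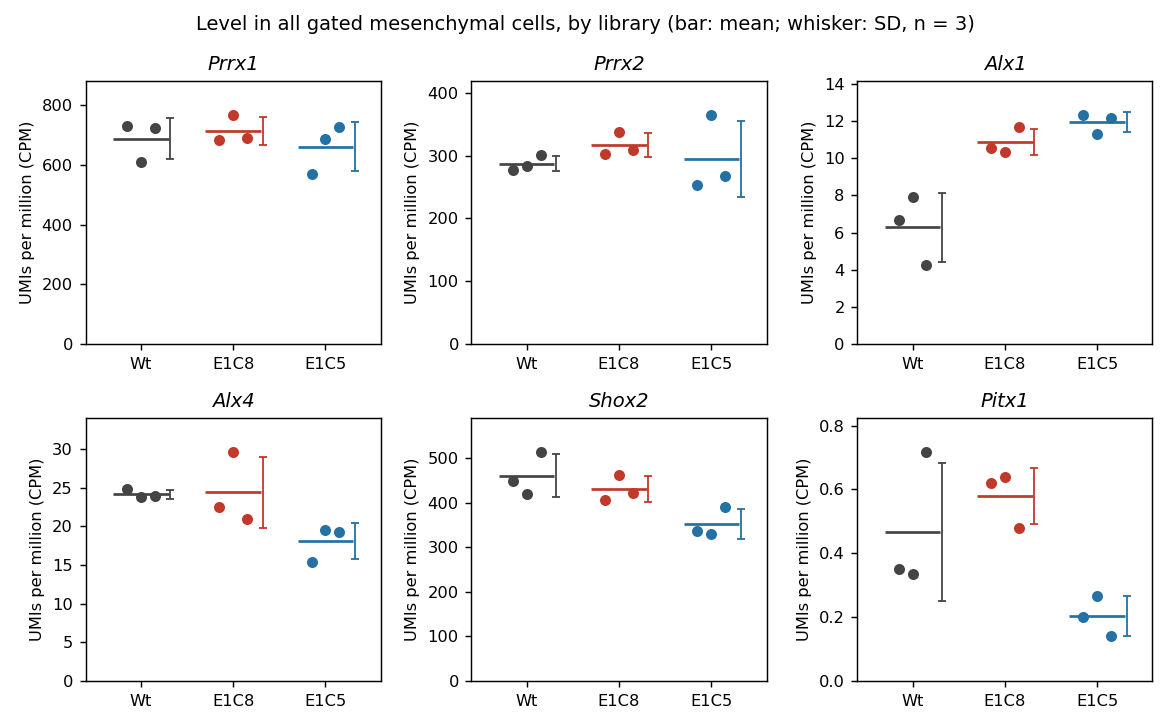
CPM of each member in all mesenchymal cells (y axis, one panel per gene, axes differ in range and start at 0) by genotype (x axis), where points are libraries and the bar with its whisker is the mean with SD (n = 3). Alx1 is the one panel where all 6 mutant points, 10.3 to 12.3 CPM, sit above the 3 Wt points, 4.28 to 7.94 CPM.

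The other 5 members did not pass. Prrx1 was at 729.1, 607.6 and 722.3 CPM in Wt, 681.4, 764.7 and 689.2 in E1C8Δ/Δ and 568.8, 684.4 and 726.8 in E1C5Δ/Δ, with a difference of 0.02 (2 SE either side, -0.16 to 0.20). Prrx2 differed by 0.11 (-0.13 to 0.35) and Alx4 by -0.18 (-0.40 to 0.035). Shox2 was at 449.1, 420.9 and 514.3 CPM in Wt and at 407.4, 462.9 and 423.3 in E1C8Δ/Δ, which overlapped, and at 337.8, 329.4 and 391.8 in E1C5Δ/Δ, below all of Wt. Its difference in both mutants was -0.22 (-0.39 to -0.056, edgeR adjusted p = 0.170). Pitx1 had 10 to 82 UMIs per library and differed by -0.36 (-0.96 to 0.23). It was the only member called between the mutants, higher in E1C8Δ/Δ (0.622, 0.639 and 0.478 CPM) than in E1C5Δ/Δ (0.201, 0.266 and 0.140 CPM) by 1.49 (SE 0.36, edgeR adjusted p = 0.028), where 9.74% of all genes passed. That call was lost when cells were thinned before summing (1.09, adjusted p = 0.204), and without any E1C8Δ/Δ replicate, E1C5Δ/Δ replicate 1 or E1C5Δ/Δ replicate 3, with differences of 1.19 to 1.61.

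Within positions, 7 of the 56 member and position pairs tested passed in both mutants against Wt, 6 higher and 1 lower, beside 0.974% of all genes and positions. By gate the share of all genes was 2.43% in distal, 1.53% in core chondrogenic, 2.71% in dorsoventral, 1.37% in zeugopod level and 0.623% in proximal cells. Alx1 gave 5 of the 7. In distal cells Alx1 had 3.68, 4.35 and 3.43 CPM in Wt, 8.78, 10.2 and 7.36 in E1C8Δ/Δ and 8.38, 10.1 and 9.43 in E1C5Δ/Δ. No mutant library overlapped Wt, although the share of all genes that separate in this way was not computed for any gate. The difference was 1.22 (SE 0.17, edgeR adjusted p = 0.0020). Alx1 also rose in core chondrogenic (1.24, adjusted p = 0.012), dorsoventral (1.10, adjusted p = 0.018), zeugopod level (0.89, adjusted p = 0.013) and proximal cells (0.74, adjusted p = 0.037). In proximal cells the single contrast passed in E1C5Δ/Δ (1.01, edgeR adjusted p = 0.020) but not in E1C8Δ/Δ (0.47, adjusted p = 0.131). Alx1 was not called between the mutants there (E1C8Δ/Δ minus E1C5Δ/Δ -0.54, edgeR adjusted p = 0.082). In peripheral cells, where it was highest in Wt, it had 16.0, 15.8 and 12.0 CPM in Wt, 13.1, 18.2 and 19.7 in E1C8Δ/Δ and 18.9, 18.1 and 15.8 in E1C5Δ/Δ, which overlapped. Prrx2 rose in distal cells, from 258.2, 267.7 and 296.5 CPM in Wt to 373.4, 408.2 and 342.9 in E1C8Δ/Δ and 348.3, 416.7 and 364.8 in E1C5Δ/Δ (0.48, SE 0.098, edgeR adjusted p = 0.022), again with no overlap. The single contrast of Prrx2 passed in E1C8Δ/Δ (0.47, edgeR adjusted p = 0.021) but not in E1C5Δ/Δ (0.49, adjusted p = 0.058). Prrx2 was not called between the mutants there (E1C8Δ/Δ minus E1C5Δ/Δ -0.026, edgeR adjusted p = 0.930). Shox2 fell by 0.42 in core chondrogenic cells (SE 0.087, edgeR adjusted p = 0.031), from 698.3, 636.4 and 759.0 CPM in Wt to 579.7, 627.5 and 622.3 in E1C8Δ/Δ and 414.2, 443.6 and 486.5 in E1C5Δ/Δ. All 6 mutant libraries lay below every Wt library, and the single contrast passed in E1C5Δ/Δ (-0.60, adjusted p = 0.011) but not in E1C8Δ/Δ (-0.23, adjusted p = 0.246). The direct contrast of E1C8Δ/Δ minus E1C5Δ/Δ did not pass in these cells (0.37, edgeR adjusted p = 0.071). Between the mutants, Shox2 was higher in E1C8Δ/Δ in scapular anterior cells (427.9, 400.0 and 376.7 CPM) than in E1C5Δ/Δ (234.2, 272.6 and 253.0 CPM), by 0.60 (SE 0.11, edgeR adjusted p = 0.017), a value that was not recomputed under the alternatives.

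None of these 7 calls remained with sex as a covariate: the differences were then 1.18, 1.27, 1.29, 0.91 and 0.77 for Alx1 in distal, core chondrogenic, dorsoventral, zeugopod level and proximal cells, 0.53 for Prrx2 and -0.37 for Shox2, with adjusted p from 0.071 to 0.390. The replicate number as a block ended the calls of Alx1 in proximal (0.79, edgeR adjusted p = 0.055) and dorsoventral cells (1.06, adjusted p = 0.058) and of Shox2 (-0.42, adjusted p = 0.054). Without the 2 smallest libraries only Alx1 in distal cells remained. The stricter gate gave no value for Alx1 in dorsoventral cells, and of the other 6 only Alx1 in zeugopod level cells passed (0.95, edgeR adjusted p = 0.019). The zeugopod level and peripheral gates already needed every marker of their lists. Their stricter versions therefore only asked for a further mesenchymal marker. Leaving out single libraries, the Shox2 call was lost in 7 of 9 cases (all but E1C8Δ/Δ replicate 3 and E1C5Δ/Δ replicate 3), the Alx1 proximal call in 8 (all but E1C5Δ/Δ replicate 3), the Prrx2 distal call without Wt replicate 1, Wt replicate 2 or E1C8Δ/Δ replicate 2, and the Alx1 dorsoventral call without Wt replicate 2 or E1C8Δ/Δ replicate 3.

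The genotype effect of a member was next compared between a position and the remaining mesenchymal cells of the same libraries, so that both sides of the comparison come from the same embryos. Whether sex acts differently between positions was not tested. Of the 66 pairs, 8 passed, beside 0.476% of all genes and positions. Of these, 3 were in distal cells, with a higher genotype effect than elsewhere, and 3 in peripheral cells, with a lower one. These gates also held 276 and 127 of the 745 calls over all genes, or 1.99% of the genes tested in distal and 0.908% in peripheral cells.

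In distal cells Prrx1 had 413.7, 345.4 and 350.7 CPM in Wt, 437.4, 494.3 and 448.4 in E1C8Δ/Δ and 427.5, 447.1 and 531.9 in E1C5Δ/Δ, and every mutant library lay above every Wt library. The genotype test of Prrx1 within distal cells alone did not pass (0.35, edgeR adjusted p = 0.058). The genotype effect there exceeded that in the other cells by 0.35 (SE 0.057, edgeR adjusted p = 0.0014). For Prrx2 in distal cells the excess was 0.40 (SE 0.059, adjusted p = 7.9e-04). For Shox2, with 133.8, 135.1 and 92.0 CPM in Wt, 107.3, 194.1 and 150.2 in E1C8Δ/Δ and 146.3, 114.1 and 169.9 in E1C5Δ/Δ, the groups overlapped and the excess was 0.55 (SE 0.13, adjusted p = 0.023). The Shox2 call was lost with doublets kept (0.34, adjusted p = 0.348), with the stricter gate (0.35, adjusted p = 0.055), under DESeq2 (0.58, adjusted p = 0.398), and without Wt replicate 3 (0.36) or E1C5Δ/Δ replicate 3 (0.51).

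In peripheral cells Prrx2 had 594.8, 629.3 and 690.1 CPM in Wt, 487.5, 577.8 and 591.5 in E1C8Δ/Δ and 485.9, 617.5 and 486.1 in E1C5Δ/Δ, and 5 of 6 mutant libraries lay below every Wt library. Within peripheral cells alone, the genotype test of Prrx2 did not pass (-0.20, edgeR adjusted p = 0.441). The genotype effect was lower there than in other cells by 0.30 (log2 -0.30, SE 0.048, edgeR adjusted p = 0.0014). Alx4 had 70.0, 61.6 and 63.2 CPM in Wt, 35.2, 56.8 and 49.3 in E1C8Δ/Δ and 33.8, 40.2 and 37.4 in E1C5Δ/Δ. All 6 mutant libraries lay below every Wt library, but the genotype test within these cells did not pass (-0.58, edgeR adjusted p = 0.074). The effect differed from that in the other cells by -0.40 (SE 0.086, adjusted p = 0.020). In these cells the groups of Alx1 overlapped, as given above, and the difference of effects was -0.57 (SE 0.14, adjusted p = 0.041), a smaller gain than elsewhere. The Alx4 call was lost with the stricter gate (-0.37, adjusted p = 0.059) and without Wt replicate 1 (-0.35, adjusted p = 0.303), and the Alx1 call was lost with the stricter gate (-0.57, adjusted p = 0.083), without TMM scaling (-0.58, adjusted p = 0.055), without the 2 smallest libraries (-0.51, adjusted p = 0.135) and in 6 of 9 leave-one-out fits (without Wt replicate 1 or 3, E1C8Δ/Δ replicate 1 or any E1C5Δ/Δ replicate).

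**Figure D4:**
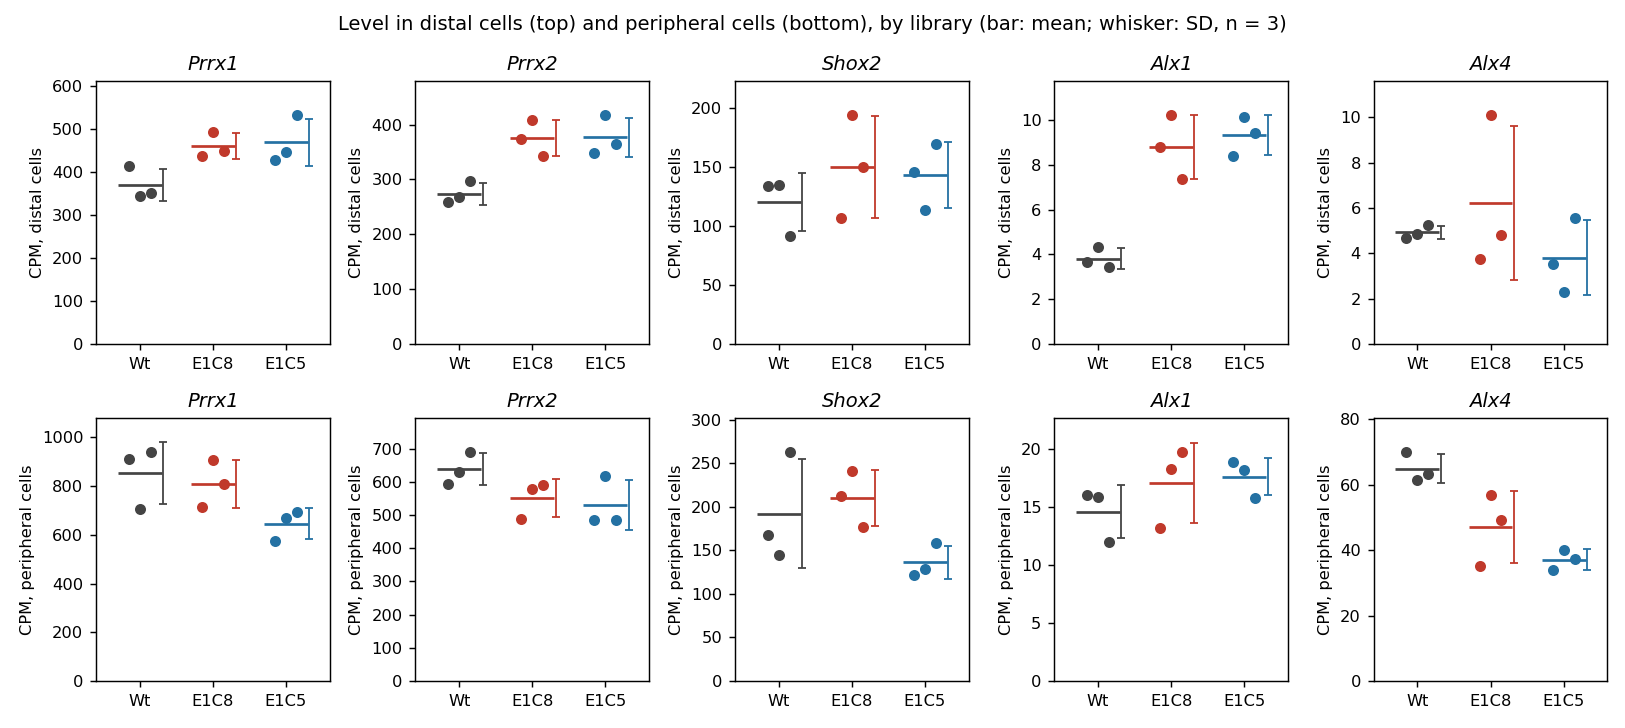
CPM of Prrx1, Prrx2, Shox2, Alx1 and Alx4 (y axes, which differ in range and start at 0) in distal cells (top) and peripheral cells (bottom) by genotype (x axis), where each point is 1 library and the bar with its whisker is the mean with SD (n = 3). In distal cells, Prrx1 and Prrx2 of all 6 mutant libraries sit above Wt, and in peripheral cells Alx4 of all 6 sits below Wt. Of these, only Prrx2 in distal cells passed the genotype test within its gate, and how often all genes separate in this way was not computed.

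From the same libraries, the paper already reports higher Prrx1 and Prrx2 in the mutants for its autopodial-digit and posterior clusters. It tested cells, and its posterior cluster is the one that holds the Shh-expressing cells. The distal Prrx1 and Prrx2 calls and the peripheral Prrx2 call kept their call in every alternative run. For these comparisons the alternatives included neither embryo sex nor the replicate number. Of the 635 polarizing region cells, 291 (45.8%) also passed the distal gate, so these gates are not separate sets of cells. In the polarizing region, Prrx2 also had a higher genotype effect (0.41, SE 0.076, edgeR adjusted p = 0.0052). It was at 180.1 and 212.8 CPM in Wt, 339.3 and 248.4 in E1C8Δ/Δ and 237.7, 353.5 and 238.1 in E1C5Δ/Δ. Every mutant library lay above Wt, but the genotype test within this gate alone did not pass (0.57, edgeR adjusted p = 0.287). The call of a higher effect was lost without Wt replicate 1, which left 1 Wt library (0.27). In anterior proximal cells Prrx2 had a lower genotype effect (-0.37, SE 0.070, edgeR adjusted p = 0.036), which was lost without the 2 smallest libraries (-0.32, adjusted p = 0.331), with mixed-lineage cells kept (-0.35, adjusted p = 0.108), without TMM scaling (-0.36, adjusted p = 0.061) and in 6 of 9 leave-one-out fits (all but those without E1C8Δ/Δ replicate 2, E1C5Δ/Δ replicate 1 or E1C5Δ/Δ replicate 3).

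The distal and peripheral gates were not the same set of cells in all genotypes. Of distal cells, 4.03–9.09% in Wt libraries and 10.1–23.2% in mutant libraries also passed the peripheral gate, and distal cells had on average 2.83–3.21 of the 5 distal markers in Wt and 2.36–2.66 in the mutants. Outside the peripheral gate, the distal effects were 0.37 for Prrx1 (edgeR adjusted p = 9.4e-04), 0.36 for Prrx2 (adjusted p = 0.0012) and 0.64 for Shox2 (adjusted p = 0.0053), and all 3 calls remained. Hoxd13, a distal gate marker, was itself lower in the mutants (-0.76, adjusted p = 0.014), and Msx1, a peripheral gate marker, was higher (0.45, adjusted p = 0.045), so the part that gate membership has in these differences was not tested further.

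The other paired-type genes outside these 6 were scarce. Of 24 listed, 7 were expressed well enough to test and none passed in both mutants (0 higher, 0 lower), with a median log2 difference of 0.28. Gsc, a gene of proximal mesenchyme that also served as a gate marker, was at 50.3 CPM with 0.28. In the contrast of E1C8Δ/Δ with Wt, where 9.49% of all genes passed, Gsc passed at 0.68 (edgeR adjusted p = 0.048). Of 23 listed limb mesenchyme patterning genes, 1 rose (Msx1), 2 fell (Grem1 by 1.16 and Hoxd13 by 0.76) and 20 did not pass, with a median of -0.23, beside 2.21% of all genes. In the single contrasts 3 rose and 3 fell in E1C8Δ/Δ (9.49% of all genes passed), and 0 rose and 3 fell in E1C5Δ/Δ (1.60% passed). Of 4 hindlimb genes, Tbx4 fell by 0.86 in both mutants together (edgeR adjusted p = 0.017), with -1.37 in E1C5Δ/Δ, which passed (adjusted p = 0.0056), and -0.34 in E1C8Δ/Δ, which did not (adjusted p = 0.243). Of the others, Isl1 differed by 0.30 without passing, and Hoxc10 and Hoxc11 were too low to test with 43 and 20 UMIs in all. The calls of these listed genes other than the members were not recomputed one by one under the alternatives, and with sex as a covariate only 3 genes of all those tested passed in both mutants.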

How the data were processed

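The deposited matrices hold UMI counts per gene and cell barcode, which the authors made with Cell Ranger 6.0.1 (per the labels' processing notes, which also name Seurat 4.3.0.1) on GRCm38. Kept barcodes had over 2500 genes, under 200000 UMIs and under 10% mitochondrial UMIs, and the cells with the most artificial-doublet neighbours were removed (1.99–22.8% of a library, in proportion to its barcodes). Cells were then gated by marker genes after thinning to 10000 UMIs, and each gate's UMIs were summed per library. CPM are these sums scaled to a common library total. How often all genes separated the groups of libraries without overlap was not computed. Sums were tested with edgeR 4.0.16 (quasi-likelihood test, TMM factors, low-count filter, X and Y genes left out, R 4.3.3), with Benjamini-Hochberg adjustment over all genes and calls at an adjusted p under 0.05, after tests on simulated data. Position fits had the library as a block. Shares used exact permutation tests (scipy 1.17.1). Gate thresholds were set after the data were seen, and the members and lists were chosen with earlier results of these data known. The named genes are the members, the 3 genes most alike in pattern to each member of at least 10 CPM, and list genes past the threshold (at most 4), of at least 10 CPM or of the hindlimb list. Intervals of differences are 2 SE either side, from the fit over libraries, and include the spread between them, whereas the limit beside a share of 0 covers counting error only. Alternatives included DESeq2 1.42.0, other gates and filters, depth, embryo sex and leaving out libraries.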

Additional observations from a re-analysis of the deposited data

Results flagged for a closer look

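The genotype effect of both mutants against Wt differed between a position and the other mesenchymal cells, by a test of that difference, for 8 pairs of member and position. In distal cells the log2 difference of effects was 0.35 for Prrx1, 0.40 for Prrx2 and 0.55 for Shox2. In peripheral cells it was -0.30 for Prrx2, -0.57 for Alx1 and -0.40 for Alx4. Prrx2 also had 0.41 in the polarizing region, where 7 libraries had enough cells, and -0.37 in anterior proximal cells. Of the polarizing region cells, 45.8% also passed the distal gate. The E1C8Δ/Δ and E1C5Δ/Δ effects differed for Pitx1 over all mesenchymal cells, by a log2 value of 1.49 at 10 to 82 UMIs per library.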

How the results depend on the processing

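Over all mesenchymal cells, the count of members called in both mutants (1) was 0 with the replicate block, with sex as a covariate and without the 2 smallest libraries, an alternative chosen after seeing the data, and 0 to 1 with single libraries left out. Within positions the count (7) was 1 with a stricter gate, 15 without the low-count filter, 4 with the replicate block, 0 with sex as a covariate and 1 without the 2 smallest libraries, and 3 to 7 with single libraries left out. The count of position and genotype interactions (8) was 5 with the stricter gate, 22 without the low-count filter, and 4 to 12 with single libraries left out. The count of all genes called in mesenchyme (354) was 578 without the filter, 1005 under DESeq2, 112 with the replicate block, 3 with sex as a covariate, 165 with cells thinned before summing and 50 without the 2 smallest libraries, and 118 to 846 with single libraries left out. By mutant, E1C8Δ/Δ against Wt (1523) had 133 with sex as a covariate and 349 to 1982 with single libraries left out, E1C5Δ/Δ against Wt (257) had 39 and 82 to 305, and E1C8Δ/Δ against E1C5Δ/Δ (1562) had 725 with the replicate block and 340 to 2228. Of the 12 genes most like a member, 2 were shared with the means of the 3 Wt libraries.

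Values that turned direction were, for differences in mesenchyme, Prrx1 without TMM (-0.0017) and Alx4 with thinned cells (0.0044), neither of which passed the test. For positions with the stricter gate they were Alx1 in proximal (-0.053) and scapular anterior cells (-0.76), Alx4 in core chondrogenic cells (-0.014) and Shox2 in posterior cells (-0.17), and the scapular anterior and posterior values passed in the other direction (edgeR adjusted p = 0.036 and 9.4e-04). For shares of cells, in percentage points, they were Prrx2 with all UMIs (-0.307), Alx4 at 5000 UMIs (-0.470) and with all UMIs (-2.79), and Shox2 at 5000 UMIs (-1.77) and with all UMIs (-1.61). With single libraries left out, the mesenchyme difference of Prrx1 ran from -0.038 to 0.061, and the share differences from -0.393 to 1.35 for Alx4, from -0.262 to 0.902 for Shox2 and from -0.349 to 0.0058 for Pitx1. The cause of these changes was not tested, other than that leaving out libraries leaves fewer samples. Of the other values of single members and of gene counts by mutant, 621 kept their direction and their side of the threshold under the alternatives that leave out no single library, 56 lost their call, and 13 gene counts by mutant moved, the 3 above among them. Co-detection kept its direction and its call at 5000 UMIs and with single libraries left out.

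Replicate numbers did not pair the libraries: the correlation of deviations from the group means ran from -0.43 to 0.084 over 9 pairs, none was over 0.1, and 0 of 9 libraries correlated best with their own number. With the number as a block, the Alx1 difference in mesenchyme was 0.88 (edgeR adjusted p = 0.066), it was 0.78 in E1C8Δ/Δ (adjusted p = 0.064) and 0.98 in E1C5Δ/Δ (adjusted p = 0.063), and Pitx1 between the mutants was 1.46 (adjusted p = 0.075). Several gates held no UMI of Pitx1 in a library, and whether depth or a low level accounts for this was not tested. The gates of Wt replicate 3 and E1C8Δ/Δ replicate 1 held the fewest cells.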
